A study of Mus musculus with 6 samples.

Results

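The genes described here are the nuclear protein-coding genes of the 5 complexes of oxidative phosphorylation, measured by RNA-seq in mouse primary cultures that the labels call motoneurons. They were chosen by symbol alone: protein-coding genes whose names begin with Ndufa, Ndufb, Ndufc, Ndufs or Ndufv and a digit (complex I), the 4 Sdh genes (complex II), Uqcr genes (complex III), Cox genes numbered 4 to 8 (complex IV) and Atp5 genes (complex V). This gave 85 of the 39174 genes in the tables: 37 for complex I, 4 for complex II, 8 for complex III, 18 for complex IV and 18 for complex V. A further gene with a fitting name, Atp5l2, was left out because the tables class it as another gene type. The libraries fell into 2 groups of 3, all from CD-1 mice: Nmd+/+, and Nmd-/-, homozygous for the neuromuscular degeneration allele of Ighmbp2. Ighmbp2 encodes a helicase whose loss in humans causes a spinal muscular atrophy with respiratory distress. By its title, the study asked how motoneurons deficient in Ighmbp2 translate β-actin mRNA locally. No label ties a library to its own culture or animal, so each test below measures only how far these libraries spread, which may be technical.

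Oxidative phosphorylation makes most of a neuron's ATP at the inner mitochondrial membrane. Complexes I and II pass electrons from NADH and succinate to ubiquinone, complex III passes them on to cytochrome c, and complex IV passes them to oxygen. Complex V, the ATP synthase, uses the resulting proton gradient. Complexes I, III, IV and V combine subunits encoded in the mitochondrial genome with subunits encoded in the nucleus and imported, whereas complex II is wholly nuclear. Several complex IV subunits exist as pairs of genes, a ubiquitous one and one known from heart and skeletal muscle, testis or hypoxic tissue. The symbols do not follow present assignments in every case. Ndufa4 is now counted as a subunit of complex IV, Cox7a2l is a factor of respiratory supercomplexes, and Atp5s and Atp5sl are not core subunits of the synthase. The symbol of Atp5l-ps1 is that of a pseudogene copy of Atp5l, although the tables class it as protein-coding.

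The promoters of these genes are known for sites of the nuclear respiratory factor NRF1, of ETS factors such as GABP, and of YY1. The following stretches, each 120 bases that end before the gene start of both RefSeq and the deposited tables, are shown because they belong to genes that the results below turn on: 2 subunits of complex II, and the ubiquitous and restricted isoforms of the Cox6b and Cox7a pairs. They come from RefSeq promoter windows on build GRCm38.p6, and capitals mark letters that match the NRF1 motif GCGCNTGCG or the ETS motif CCGGAAG on either strand.
Sdhd (chr9:50603850-50603969, - strand): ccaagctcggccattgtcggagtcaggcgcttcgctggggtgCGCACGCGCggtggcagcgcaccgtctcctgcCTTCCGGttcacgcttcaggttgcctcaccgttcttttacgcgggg
Sdha (chr13:74350281-74350400, - strand): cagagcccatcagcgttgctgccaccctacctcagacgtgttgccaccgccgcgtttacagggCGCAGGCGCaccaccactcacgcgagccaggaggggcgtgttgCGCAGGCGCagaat
Cox6b1 (chr7:30626152-30626271, - strand): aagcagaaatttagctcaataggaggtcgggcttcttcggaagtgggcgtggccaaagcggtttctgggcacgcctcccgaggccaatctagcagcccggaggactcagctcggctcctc
Cox6b2 (chr7:4753095-4753214, - strand): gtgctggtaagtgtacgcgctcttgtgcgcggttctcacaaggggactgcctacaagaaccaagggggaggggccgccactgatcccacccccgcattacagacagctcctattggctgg
Cox7a2 (chr9:79759854-79759973, - strand): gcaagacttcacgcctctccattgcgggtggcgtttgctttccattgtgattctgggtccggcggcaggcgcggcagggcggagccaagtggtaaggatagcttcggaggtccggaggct
Cox7a1 (chr7:30184051-30184170, + strand): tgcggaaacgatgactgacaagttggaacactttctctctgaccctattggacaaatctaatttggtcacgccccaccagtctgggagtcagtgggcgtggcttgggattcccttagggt
The Sdhd stretch held 1 match of each motif and the Sdha stretch 2 NRF1 matches. The stretches of Cox6b1, Cox6b2, Cox7a2 and Cox7a1 held none.

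RefSeq windows, from 250 bases before to 50 bases after the start, were matched for 69 of the 85 genes. The NRF1 letters occurred in 22 of the 69 windows (31.9%), against 14.5% of the 9912 windows of tested protein-coding genes and 6.59% of all 27025 windows taken 1 per gene. The ETS letters occurred in 15 windows (21.7%), against 18.3% and 9.12%. The YY1 letters AANATGGC occurred in 16 windows (23.2%), against 8.82% and 6.23%. The GC-box letters GGGCGG, bound by Sp1, occurred in 28 windows (40.6%), against 66.8% of tested protein-coding genes and 35.9% of all windows. Both strands were searched, the motifs can overlap one another, and a match says only that the letters are present. Both NRF1 and ETS letters occurred in 6 windows, those of Atp5h, Atp5k, Atp5l, Cox6a1, Sdhd and Uqcr11.

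The deposited values are FPKM, a level scaled by transcript length and by the number of fragments mapped in the library. The tables give no fragment totals. Levels summed to between 664628 and 693258 FPKM per library. Ighmbp2 measured 1.44, 1.303 and 1.09 FPKM in Nmd+/+ replicates 1 to 3 and 0.876, 0.788 and 0.598 FPKM in Nmd-/- replicates 1 to 3, with no overlap between the genotypes (limma adjusted p = 0.9997). The name motoneuron is the labels' own, and most motoneuron markers were low. Chat, the enzyme of acetylcholine synthesis, measured at most 0.0692 FPKM and Mnx1, a motoneuron transcription factor, at most 0.0247 FPKM. Lhx3 and Slc5a7 reached 0.734 and 0.460 FPKM. Isl1 was the highest, at 0.608 to 1.81 FPKM, and alone passed the filter described below. The 7 markers of that kind in the tables summed to between 1.61 and 2.86 FPKM. Markers of other spinal neurons summed to between 125 and 274 FPKM and those of radial glia and astrocytes to between 3152 and 4984 FPKM. Most of the latter sum was Vim, at 2380 to 4452 FPKM. Fabp7 measured 283 to 564 FPKM and the rest of that list 0.809 to 132 FPKM. Such sums depend on the genes listed and do not measure the share of a cell type. Markers of dividing cells summed to 326 to 485 FPKM in Nmd+/+ and 397 to 496 FPKM in Nmd-/-. In these bulk cultures, fewer cells of a type and less RNA per cell cannot be told apart. Fibroblast markers summed to 150 and 185 FPKM in the replicate 2 libraries and to at most 18.7 FPKM in the other 4.

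The median level of the genes, each averaged over the libraries, was 121 FPKM over all 85. Over the 79 that passed the filter described below it was 136 FPKM, against 11.5 FPKM for all protein-coding genes that passed it. In all, 76 of the 85 measured at least 10 FPKM in every library. Summed, they made up 2.15% to 2.55% of a library's FPKM. The sum was 17189, 14924 and 16280 FPKM in Nmd+/+ replicates 1 to 3 and 16618, 15384 and 15394 FPKM in Nmd-/- replicates 1 to 3. It was highest in replicate 1 of both genotypes and lowest in Nmd+/+ replicate 2. By complex, the sums in Nmd+/+ and Nmd-/- were 5924 ± 341 and 5775 ± 236 FPKM for complex I, 410 ± 2.11 and 409 ± 4.27 FPKM for complex II, and 1652 ± 108 and 1638 ± 34.4 FPKM for complex III (SD, n = 3 each). They were 3787 ± 141 and 3673 ± 94.6 FPKM for complex IV, and 4358 ± 585 and 4304 ± 386 FPKM for complex V. Each of these differences was smaller than the larger of the 2 SDs.

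**Figure D1:**
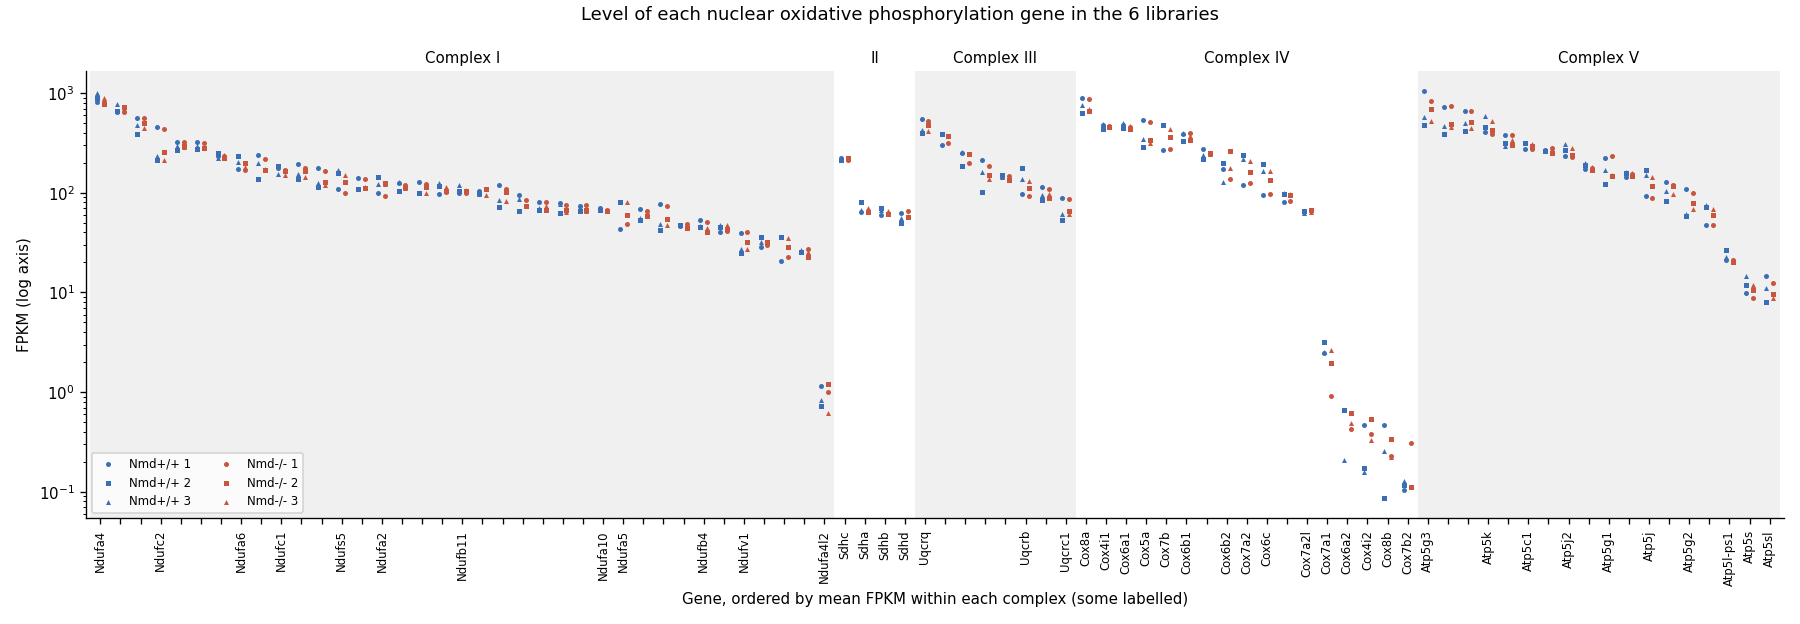
FPKM (log axis) of 84 of the 85 genes in each library, ordered by mean level within complexes I to V and labelled in part; blue marks Nmd+/+, red Nmd-/-, and the symbol gives the replicate number. In most genes the genotypes interleave, and 6 restricted isoforms lie at or below 3.19 FPKM; Cox8c, listed at 0 in 5 libraries, is not drawn.

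Genotypes were compared gene by gene on log2(FPKM + 1), as Nmd-/- minus Nmd+/+, with limma over all 14611 genes whose mean was at least 1 FPKM. Of the 85 genes, 79 passed that filter, and the 6 that did not were Ndufa4l2, Cox4i2, Cox6a2, Cox7b2, Cox8b and Cox8c. None of the 79 had a Benjamini-Hochberg adjusted p under 0.05, and none had an unadjusted p under 0.05, against 0% and 0.445% of all genes tested. The smallest limma adjusted p among the 79 was 0.9997. For 78 of the 79 the 95% interval of the difference lay within a 2-fold change in either direction, and for 55 within a 1.5-fold change, against 95.6% and 65.9% of all genes tested. The exception to the 2-fold limit was Cox7a1.

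Small differences leaned towards lower values in Nmd-/-. The difference was above 0 for 32 of the 79 genes and below 0 for 47, whereas 56% of all genes tested were higher in Nmd-/-. The median difference was -0.02 on the log2 scale, against 0.02 for all genes tested. With the libraries scaled by median of ratios, 49.9% of all genes were higher in Nmd-/-, and the 79 genes split into 26 higher and 53 lower. Without Nmd+/+ replicate 1 the split was 40 higher and 39 lower, with 58.6% of all genes higher, and without Nmd+/+ replicate 2 it was 21 higher and 58 lower. Without both replicate 1 libraries it was 33 higher and 46 lower, and without both replicate 2 libraries 25 higher and 54 lower. All 8 markers of dividing cells had a higher mean in Nmd-/-, with a median difference of 0.22 and no overlap between the genotypes for Cenpf. Within replicate 2, however, Mki67, Top2a, Ccnb1, Cdk1, Aurka and Bub1 were lower in Nmd-/-, at -0.43 to -0.04, and only Plk1 and Cenpf were higher. Within replicate 3 all 8 were higher, at 0.47 to 0.66. The part of cell makeup in the lean of the 79 genes was not tested. Taken within replicate numbers, 15 of the 79 were lower in Nmd-/- in each of the 3 numbers, against 10.6% of all genes tested, and 3 were higher in each, against 14.9%. The 15 included 6 genes placed in complex V by symbol (Atp5c1, Atp5j, Atp5j2, Atp5k, Atp5l-ps1 and Atp5s) and 7 in complex I (Ndufa2, Ndufa6, Ndufa10, Ndufb4, Ndufb11, Ndufc1 and Ndufs5), with Cox6a1 and Uqcrb. Of these, Atp5s is not a core subunit and Atp5l-ps1 has the symbol of a pseudogene copy. The 3 higher genes were Cox7a2l, Ndufv1 and Sdhd. For 49 of the 79, under 10% of 50-base words occurred in other annotated transcripts and no expressed gene overlapped. Of those 49, 8 (16.3%) were lower in each number and 2 (4.08%) higher. These counts rest on small values: the smallest of a gene's 3 differences was at most 0.15, that of Ndufs5.

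**Figure D2:**
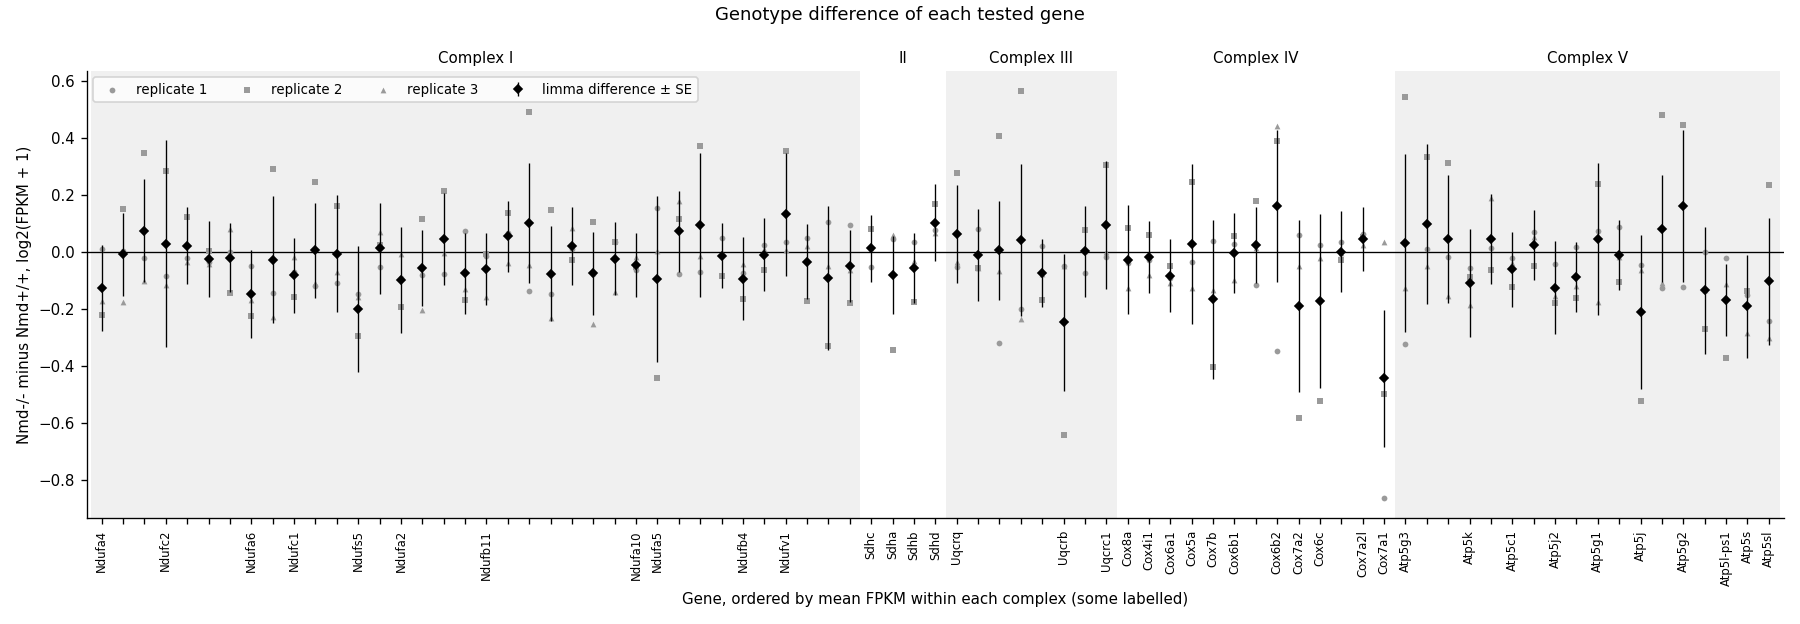
Difference between genotypes, Nmd-/- minus Nmd+/+ in log2(FPKM + 1), for the 79 tested genes by complex, labelled in part; black diamonds are limma differences with their standard error and grey symbols the differences within replicate numbers 1, 2 and 3. Apart from Cox7a1 at -0.44, the black diamonds lie between -0.25 and 0.16, and the grey squares of replicate 2 spread the most.

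Complex I was represented by 36 tested genes, of which 12 had a higher and 24 a lower mean in Nmd-/-, with a median difference of -0.02. The level of these genes spanned from Ndufa4, at 868 FPKM over all libraries, to Ndufs1, which carries iron-sulphur clusters of the peripheral arm, at 25.6 FPKM. Ndufa4 measured 814, 897 and 1011 FPKM in Nmd+/+ replicates 1 to 3 and 820, 771 and 898 FPKM in Nmd-/- replicates 1 to 3. The genotypes overlapped, with a difference of -0.13 (SE 0.15). Ndufv1, the flavoprotein subunit that binds NADH, had the smallest p of the higher genes. It measured 39.4, 25.1 and 27.3 FPKM in Nmd+/+ and 40.5, 32.3 and 27.4 FPKM in Nmd-/-, a difference of 0.13 (SE 0.21). In both genotypes replicate 1 was the highest library. Ndufa6, an accessory subunit, had the smallest p of the lower genes. It measured 174, 232 and 203 FPKM in Nmd+/+ and 168, 198 and 181 FPKM in Nmd-/-, a difference of -0.15 (SE 0.15). The limma adjusted p was 0.9997 for each of these 3 genes.

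Ndufc2 (ENSMUSG00000030647, GRCm38 chromosome 7, 97400003 to 97407802), an accessory subunit of the membrane arm, varied the most among the complex I genes tested. It measured 461, 212 and 233 FPKM in Nmd+/+ replicates 1 to 3 and 436, 258 and 215 FPKM in Nmd-/- replicates 1 to 3. Both replicate 1 libraries thus lay far above the other 4, while the genotype means of 302 ± 138 and 303 ± 117 FPKM (SD, n = 3 each) were nearly equal. Ndufa5 (ENSMUSG00000023089, chromosome 6, 24518666 to 24528013), an accessory subunit of the peripheral arm, showed the reverse order. It measured 43.3, 81.0 and 80.9 FPKM in Nmd+/+ and 48.3, 59.3 and 81.1 FPKM in Nmd-/-, so that replicate 1 was the lowest library in both genotypes. The ratio of Ndufc2 to Ndufa5 was 10.7 and 9.01 in the replicate 1 libraries and between 2.61 and 4.35 in the others. Other genes of the complex were steady. Ndufa9 lay between 44.7 and 48.2 FPKM and Ndufa10 between 65.2 and 70.7 FPKM in all 6 libraries.

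Complex II, succinate dehydrogenase, gave 4 genes, 2 with a higher and 2 with a lower mean in Nmd-/-, and their highest library was at most 1.31 times their lowest. Sdhc, a membrane anchor subunit, was both the highest of the 4 and the steadiest of all 79 genes tested, with a highest-to-lowest ratio of 1.06. It measured 224, 211 and 218 FPKM in Nmd+/+ and 215, 224 and 220 FPKM in Nmd-/-. The genotypes were interleaved, with a difference of 0.01 (SE 0.12). Sdhd, the other anchor subunit, measured 62.3, 50.2 and 55.8 FPKM in Nmd+/+ and 65.7, 56.6 and 58.5 FPKM in Nmd-/-. It was higher in Nmd-/- within each of the 3 replicate numbers, by 0.08, 0.17 and 0.07, but the ranges overlapped and the difference of 0.10 (SE 0.14) did not pass. Sdha, the flavoprotein subunit, measured 64.2, 81.1 and 66.9 FPKM in Nmd+/+ and 66.3, 63.7 and 69.7 FPKM in Nmd-/-, a difference of -0.08 (SE 0.14). Its highest value was that of Nmd+/+ replicate 2, and without that library the difference was 0.02.

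In complex III, 5 of 8 genes had a higher and 3 a lower mean in Nmd-/-. The highest level was that of Uqcrq, a small subunit, at 546, 398 and 431 FPKM in Nmd+/+ and 526, 482 and 421 FPKM in Nmd-/-. The lowest was that of the core protein gene Uqcrc1, at 88.5, 53.4 and 60.9 FPKM in Nmd+/+ and 87.5, 66.3 and 60.9 FPKM in Nmd-/-. Both genes were highest in the replicate 1 libraries, and their genotype differences were 0.06 (SE 0.17) and 0.10 (SE 0.23). Uqcrb (ENSMUSG00000021520, chromosome 13, 66900617 to 66905378), the ubiquinone-binding protein, had the lowest difference of the complex, -0.25 (SE 0.24, 95% interval -0.81 to 0.32). It measured 96.3, 176 and 137 FPKM in Nmd+/+ and 93.2, 112 and 132 FPKM in Nmd-/-. Nearly all of that difference lay between the replicate 2 libraries, at -0.64, against -0.05 in each of the other 2 replicate numbers. Uqcrb has a near copy elsewhere in the annotated transcripts for 19.2% of its 50-base words, so its level is uncertain to that extent.

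In complex IV, 13 genes were tested, 5 with a higher and 8 with a lower mean in Nmd-/-. Cox8a, a small structural subunit, was the highest, at 902, 628 and 755 FPKM in Nmd+/+ and 879, 665 and 691 FPKM in Nmd-/-. Cox5a (ENSMUSG00000000088, chromosome 9, 57521232 to 57532424), a subunit on the matrix side, measured 532, 285 and 346 FPKM in Nmd+/+ and 519, 338 and 317 FPKM in Nmd-/-. Cox6c (chromosome 15, 35925886 to 35938246) measured 94.8, 194 and 167 FPKM in Nmd+/+ and 96.5, 135 and 165 FPKM in Nmd-/-. Cox5a was highest and Cox6c lowest in replicate 1 of both genotypes. The ratio of Cox5a to Cox6c was 5.61 and 5.38 in the replicate 1 libraries and 1.47 to 2.50 in the other 4. Cox7a2l, in contrast, lay between 62.7 and 67.6 FPKM throughout.

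In complex V, 8 of 18 genes had a higher and 10 a lower mean in Nmd-/-, with a median difference of -0.04. Subunit c, which forms the rotor ring, is encoded by 3 genes whose mature protein is the same. Atp5g3 (chromosome 2, 73908447 to 73911326) had the highest level of the complex, at 1046, 479 and 578 FPKM in Nmd+/+ and 837, 698 and 530 FPKM in Nmd-/-. Atp5g1 measured 222, 124 and 169 FPKM in Nmd+/+ and 234, 146 and 149 FPKM in Nmd-/-. Atp5g2 measured 109, 58.3 and 60.9 FPKM in Nmd+/+ and 100.3, 79.9 and 68.4 FPKM in Nmd-/-. The 3 genes were all highest in the replicate 1 libraries, and their sum was 1378 and 1171 FPKM there, against 661 to 924 FPKM elsewhere. Their shares of that sum moved little: Atp5g3 gave 70.9% to 75.9%, Atp5g1 15.8% to 20.9% and Atp5g2 7.54% to 9.15% in the 6 libraries. The genotype difference of Atp5g2, the smallest p of the higher genes in the complex, was 0.16 (SE 0.27), and it ran from 0.0038 without Nmd+/+ replicate 2 to 0.45 without Nmd+/+ replicate 1.

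Atp5l-ps1 was the only gene of the 79 whose 3 values per genotype did not overlap. It measured 21.4, 26.5 and 22.9 FPKM in Nmd+/+ and 21.1, 20.2 and 21.2 FPKM in Nmd-/-, a difference of -0.17 (SE 0.13) with limma adjusted p = 0.9997. Non-overlap towards lower values was found for 0.91% of all genes tested and towards higher values for 1.76%, and no other of the 79 showed it in either direction. Of the 50-base words of its transcript 55.1% also occur in other annotated transcripts, among them those of Atp5l, and its level is therefore uncertain. Atp5l itself overlapped between the genotypes, at 47.1, 72.3 and 75.2 FPKM in Nmd+/+ and 47.1, 59.8 and 68.5 FPKM in Nmd-/-. The lowest level of the complex was that of Atp5sl, at 14.7, 8.05 and 11.1 FPKM in Nmd+/+ and 12.3, 9.65 and 8.83 FPKM in Nmd-/-.

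The paired isoforms showed which member of each pair these cultures used. The restricted gene made up at most 0.157% of the pair's summed FPKM in every library for Cox4i2 (known from lung and hypoxia), Cox6a2 and Cox8b (heart and skeletal muscle), Cox7b2 and Cox8c (testis) and Ndufa4l2 (hypoxia). Cox8c was listed at 0 in 5 libraries and at 0.0429 FPKM in Nmd-/- replicate 2. Skeletal muscle markers were also low, but not all near 0. Ckm, the muscle creatine kinase, measured at most 0.0577 FPKM, Myod1 at most 0.0203 FPKM and Myog at most 0.0276 FPKM. Acta1 was the highest of them, at 1.94 to 3.34 FPKM, and Tnnt3, Actn2 and Myh8 reached 1.53, 1.07 and 0.894 FPKM. The 10 genes of that marker list, of which only Acta1 passed the filter, summed to 4.46 to 5.36 FPKM in Nmd+/+ and 5.27 to 5.58 FPKM in Nmd-/-.

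Cox6b2 (ENSMUSG00000051811, chromosome 7, 4751792 to 4753094), the isoform known from testis, was the exception. It measured 175, 200 and 130 FPKM in Nmd+/+ replicates 1 to 3 and 137, 262 and 177 FPKM in Nmd-/- replicates 1 to 3. Beside its ubiquitous partner Cox6b1, at 386, 328 and 394 FPKM in Nmd+/+ and 394, 342 and 368 FPKM in Nmd-/-, it gave 24.8% to 43.4% of the pair. The mean share was 31.3 ± 6.53% in Nmd+/+ and 33.9 ± 8.89% in Nmd-/- (SD, n = 3 each). The difference of 2.64 percentage points was within the spread between libraries (exact two-sided permutation p = 0.6, adjusted p = 1.0 over 8 pairs, where 3 against 3 cannot go below 0.1). Cox6b2 had no 50-base word in common with another annotated transcript and no expressed gene overlapped it. It was highest in the replicate 2 library in both genotypes, while Cox6b1 was lowest there. In the stretches printed above, neither gene held an NRF1 or ETS match, although the full window of Cox6b1 held 1 ETS match and that of Cox6b2 none.

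**Figure D3:**
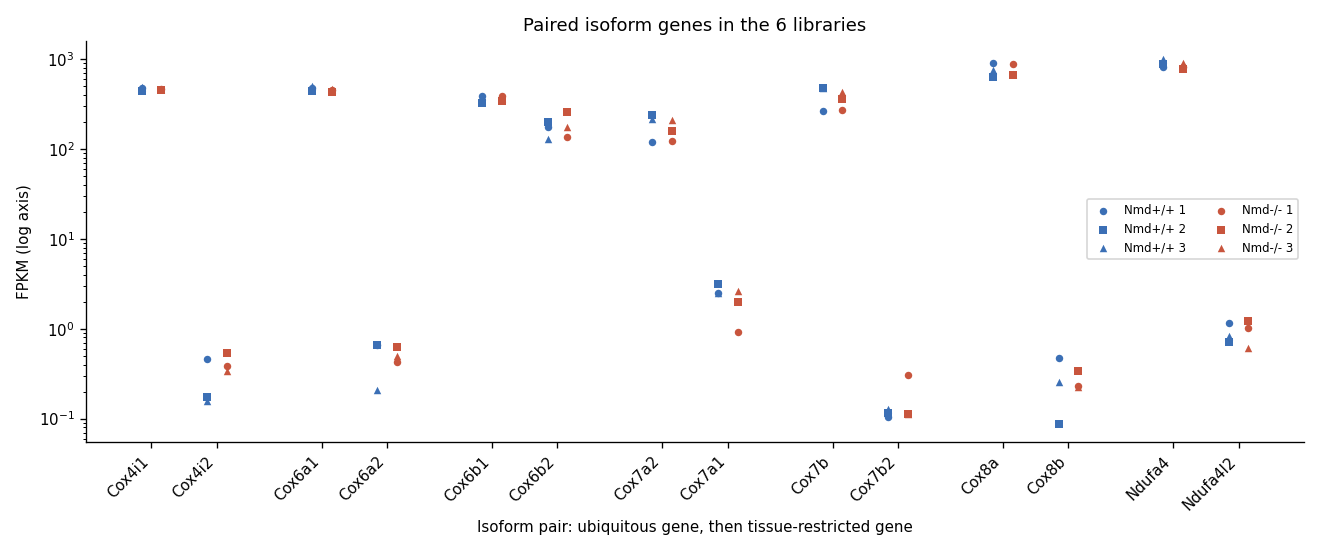
FPKM (log axis) of 7 isoform pairs in the 6 libraries, the ubiquitous gene on the left and the restricted gene on the right of each pair; blue marks Nmd+/+, red Nmd-/-, and the symbol the replicate number. Cox6b2 lies close to Cox6b1, whereas Cox7a1 lies at 0.916 to 3.19 FPKM and the other restricted genes at or below 1.21 FPKM; the pair of Cox8a with Cox8c is not drawn.

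Cox7a1 (ENSMUSG00000074218, chromosome 7, 30184171 to 30186028), the heart and skeletal muscle isoform, was the one gene of the 79 that passed 0.05 before adjustment in limma with the replicate number as a block (limma adjusted p = 0.990). It measured 2.48, 3.19 and 2.53 FPKM in Nmd+/+ and 0.916, 1.96 and 2.62 FPKM in Nmd-/-. By the width of the confidence interval given with each FPKM, this level rested on an estimated 11.9 to 47.5 fragments per library. The difference was -0.44 (SE 0.24, 95% interval -1.004 to 0.12), made up of -0.86 and -0.50 in replicates 1 and 2 and 0.03 in replicate 3. The lowest value was that of Nmd-/- replicate 1, and without that library the difference was -0.19. With the block, 1.74% of all genes tested were lower and 3.13% higher at that unadjusted threshold. Cox7a1 made up 0.732% to 2.04% of its pair with Cox7a2, and this share did not differ between genotypes beyond the spread (exact two-sided permutation p = 0.3, adjusted p = 1). Of the 8 smooth muscle and pericyte markers, 3 passed the filter. The 8 summed to 1392 to 4271 FPKM in Nmd+/+ and 2109 to 4579 FPKM in Nmd-/-, highest in the replicate 2 libraries. Nearly all of each sum was Acta2, at 1081 to 3794 FPKM, and Tagln, at 311 to 781 FPKM. Pdgfrb measured 0.397 to 2.996 FPKM, and Rgs5, Kcnj8, Abcc9, Higd1b and Myh11 at most 0.747 FPKM in any library. Cox7a1 was highest in replicate 2 among the Nmd+/+ libraries and in replicate 3 among the Nmd-/- libraries, and the part of other cell types in its level was not tested.

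Larger differences lay between replicate numbers. For 32 of the 79 genes both replicate 1 libraries lay above the other 4, against 25.9% of all genes tested, and for 23 they lay below, against 17.7%. Replicate 2 gave 2 genes above and 11 below, against 20.6% and 18.8% of all genes. Replicate 3 gave 8 above and 4 below, against 4.18% and 10.8%. The 32 genes high in replicate 1 came from all 5 complexes (16, 1, 4, 3 and 8 genes of complexes I to V), and so did the 23 low ones (10, 1, 2, 4 and 6). Subunits of the same complex therefore lay on opposite sides. Examples high in replicate 1 were Ndufc2, Uqcrc1, Cox5a, Cox8a, Atp5g3 and Atp5o, and examples low in replicate 1 were Ndufa5, Ndufs4, Uqcrb, Cox6c, Cox7a2, Cox7b and Atp5j. Of these, Atp5o shared 34.9% of its 50-base words with other transcripts, Atp5j 20.2%, Uqcrb 19.2% and Cox5a 10.5%. Expressed genes overlapped Ndufc2, Atp5o, Uqcrb, Cox6c and Atp5j. Among the 49 genes with under 10% shared words and no expressed overlapping gene, both replicate 1 libraries lay above the other 4 for 21 and below for 14.

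**Figure D4:**
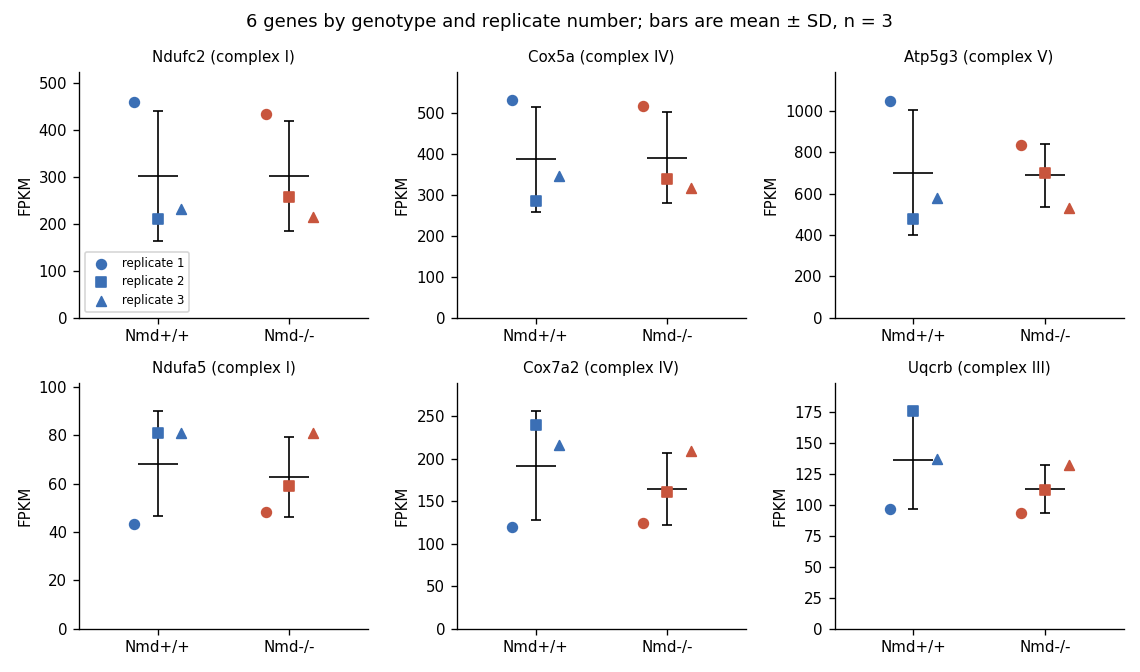
FPKM of 6 genes by genotype and replicate number (circle 1, square 2, triangle 3); black bars are the mean ± SD of 3 libraries. Ndufc2, Cox5a and Atp5g3 are highest in replicate 1 of both genotypes, and Ndufa5, Cox7a2 and Uqcrb are lowest there.

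The order was shared by the genotypes. Across the 79 genes, the value of replicate 1 minus the mean of replicates 2 and 3 in Nmd+/+ correlated with the same value in Nmd-/- (Pearson r = 0.89, Spearman rho = 0.92, described across genes, which share libraries and are not independent). Over all 12664 protein-coding genes tested, r was 0.81 and rho 0.80, so the shared order was not particular to these genes. Ndufc2 lay 1.05 above the other replicates in Nmd+/+ and 0.88 in Nmd-/- on the log2 scale, and Atp5g3 lay 0.99 and 0.46 above. Cox7a2 (chromosome 9, 79755241 to 79759853), the liver-type and ubiquitous partner of Cox7a1, measured 119, 240 and 216 FPKM in Nmd+/+ and 124, 160 and 209 FPKM in Nmd-/-. It lay at -0.93 and -0.56 on the same scale. Exceptions were Cox6b2, at 0.12 in Nmd+/+ and -0.64 in Nmd-/-, Cox7a1, at -0.14 and -0.77, and Uqcr10, at 0.19 and -0.30.

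**Figure D5:**
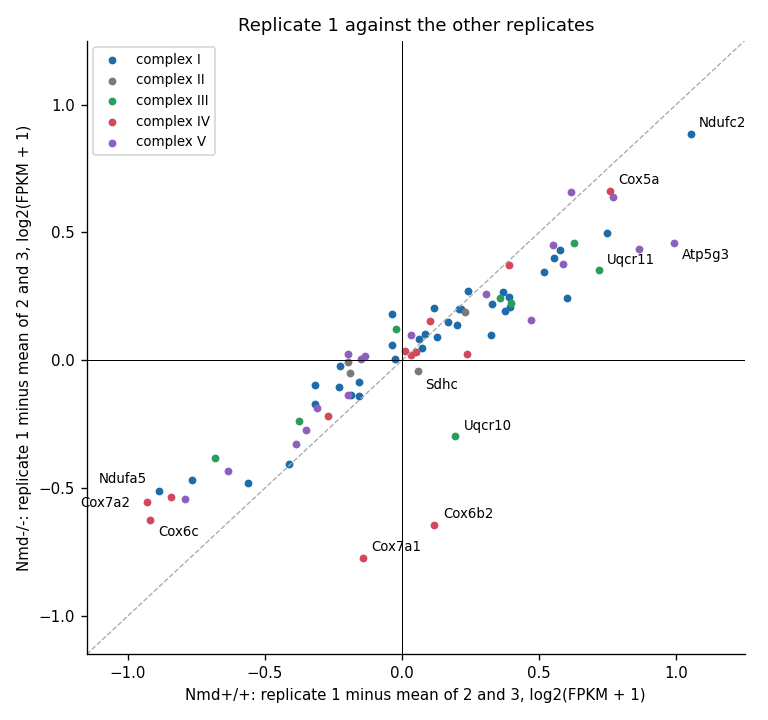
Replicate 1 minus the mean of replicates 2 and 3 in log2(FPKM + 1), in Nmd+/+ (horizontal) and Nmd-/- (vertical), for the 79 tested genes coloured by complex; the dashed line marks equal values. Most genes run in the direction of that line, from Cox7a2 and Cox6c at the lower left to Ndufc2 at the upper right, while Cox6b2, Cox7a1 and Uqcr10 lie below it.

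Over all genes tested, though less so over the 79, the base composition of the transcripts was related to that value. Over all 12567 tested protein-coding genes with a transcript, Spearman's rho between GC content and the replicate 1 value was 0.58 in Nmd+/+ and 0.40 in Nmd-/-, and over the 79 genes it was 0.34 and 0.20. The transcripts of the 32 genes high in replicate 1 had a median GC content of 52.6% (41.6% to 63.3%). Those of the 23 low genes had 50.02% (38.4% to 55.8%), so the ranges overlapped widely. The 24 genes in neither group had the lowest median, 48.6%, so the 3 medians did not follow the replicate 1 order. For transcript length, rho over the 79 genes was 0.10 in Nmd+/+ and 0.23 in Nmd-/-. Over all 12567 genes it was -0.05 and -0.01. For 5 of 8 markers of other spinal neurons, too, both replicate 1 libraries lay above the other 4, and the list summed to 274, 125 and 247 FPKM in Nmd+/+ and 260, 138 and 188 FPKM in Nmd-/-. NRF1 letters were present in 11 of the 29 matched windows of the high genes and in 6 of the 20 of the low genes. The part of base composition and of cell makeup in this order was not tested.

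The genes that build the complexes and the other subunits were examined from lists. Of 44 tested assembly factors of complexes I to V, 18 had a higher and 26 a lower mean in Nmd-/-, with a median difference of -0.02, and 0 had an adjusted or an unadjusted p under 0.05. In the list of complex IV factors 6 of 21 were higher and 15 lower. Its gene with the smallest p, the copper chaperone gene Sco1, measured 3.97 ± 0.53 and 3.42 ± 0.48 FPKM in Nmd+/+ and Nmd-/- (SD, n = 3 each), a difference of -0.17 (SE 0.15). Cox20, the highest of that list, measured 113 ± 9.20 and 103 ± 8.88 FPKM. Ndufaf2, a late assembly factor of complex I, measured 13.4 ± 1.8 and 11.6 ± 1.6 FPKM, a difference of -0.20 (SE 0.15). Ndufaf5 was the highest of the complex I factors, at 22.1 ± 5.7 and 19.9 ± 5.4 FPKM.

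For the smaller lists the differences were of the same size. The complex II factors Sdhaf1 and Sdhaf2 differed by 0.06 (SE 0.22) and 0.01 (SE 0.11), and the complex III factors Ttc19 and Uqcc2 by -0.13 (SE 0.14) and -0.11 (SE 0.13). The complex V factors Atpaf1 and Tmem70 differed by -0.16 (SE 0.16) and -0.11 (SE 0.13). Of 7 tested genes on a list of subunits, electron carriers and related proteins that the symbols above do not cover, 1 was higher and 6 lower. The higher gene was Hccs, at 0.05 (SE 0.25), which attaches haem to cytochrome c and is neither a subunit nor a carrier. The lower genes included Atpif1, an inhibitor of the synthase. Cytochrome c, Cycs, measured 15.3 ± 2.7 and 13.6 ± 1.9 FPKM, a difference of -0.15 (SE 0.17). Usmg5, a small subunit of the ATP synthase, measured 260, 548 and 554 FPKM in Nmd+/+ and 282, 399 and 494 FPKM in Nmd-/-, and was thus lowest in replicate 1 of both genotypes.

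Among 14 tested regulators of mitochondrial gene expression, 8 were higher and 6 lower in Nmd-/-, with a median difference of 0.03. Polg, the mitochondrial DNA polymerase, had the smallest p of the list. It measured 9.47, 10.7 and 8.58 FPKM in Nmd+/+ and 10.9, 12.9 and 11.6 FPKM in Nmd-/-. The genotypes did not overlap, as for 1.76% of all genes tested in that direction, with a difference of 0.27 (SE 0.14) and a limma adjusted p of 0.9997. Within replicate numbers the difference was 0.18, 0.25 and 0.39. With the replicate number as a block, Polg and Polrmt, the mitochondrial RNA polymerase, passed 0.05 before adjustment in limma but not after it (limma adjusted p = 0.990 and 0.999). Polrmt measured 11.8, 8.82 and 11.6 FPKM in Nmd+/+ and 13.1, 10.95 and 14.7 FPKM in Nmd-/-, values that overlapped, with a difference of 0.25 (SE 0.17). Gabpa, a subunit of the ETS factor GABP and the highest of the list, measured 34.1 ± 6.1 and 31.6 ± 4.1 FPKM, and Nrf1 10.46 ± 1.98 and 10.7 ± 0.62 FPKM (SD, n = 3 each).

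The 13 subunits encoded in the mitochondrial genome all had a lower mean in Nmd-/-, with a median difference of -0.17 and 0 past the test, with or without the replicate block. Each of the 13 was also lower within each of the 3 replicate numbers, against 10.6% of all genes tested. The differences were small in replicate 1, from -0.13 for mt-Nd4l to -0.0027 for mt-Nd1. They ran from -0.39 to -0.082 in replicate 2 and from -0.36 to -0.12 in replicate 3. These genes are transcribed together as long precursors and are not independent. Per FPKM of nuclear subunits of all complexes they gave 7.42, 10.2 and 10.8 FPKM in Nmd+/+ and 7.49, 8.26 and 10.03 FPKM in Nmd-/-, ranges that overlapped, with the lowest ratio in replicate 1 of both genotypes.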

How the data were processed

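RNA-seq of 6 libraries was analysed, 3 per genotype. Per the file headers the authors deposited FPKM per gene as written by Cufflinks, 1 table per library. Cufflinks was version 2.2.1 and the build GRCm38, per the submitters' processing notes, which also list SAMtools 1.3, cutadapt 1.8, Trim Galore 0.4.0 and FastQC 0.10.1; the sources used here give neither the annotation release nor the use of strand. Fragment totals, and so the exact depth per library, are not given, and overlapping or antisense genes may share reads.

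Genes with a mean of at least 1 FPKM and an accepted status in each library were compared with limma 3.58.1 (R 4.3.3, intensity trend) on log2(FPKM + 1), which understates changes of low genes, two-sided, with Benjamini-Hochberg adjustment over 14611 genes at 0.05. The script was tested on simulated data. Isoform shares used exact permutation tests. GENCODE M21 gave transcript sequences, GC content and shared 50-base words. File starts were counted from 0 and are printed plus 1. Same-numbered libraries deviated together across genes (r = 0.82, 0.70 and 0.39), so the numbers pair the libraries by these data and not by a label. Over the 79 genes described here the correlations were 0.893, 0.437 and 0.734, of which the first is the Pearson r given for replicate 1 above. However, Nmd+/+ replicate 2 lay closer to Nmd-/- replicate 3 (0.828) than to its own number. The members and lists were chosen with earlier results of these data known.

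Named were, per complex, the genes with the highest and lowest mean and the smallest p in each direction, every isoform pair, the subunit c genes, genes whose genotypes did not overlap, and per list the smallest p and the highest mean. Other genes, such as Ndufc2, Ndufa5, Ndufs1, Ndufs4, Cox5a, Cox6c, Ndufa9, Ndufa10, Cox7a2l, Uqcr10, Atp5j, Atp5o, Nrf1, Polrmt and Cenpf, were chosen after their values were seen. Alternatives were a pseudocount of 0.1, no filter or one at 5 FPKM, scaling by median of ratios, no trend, the replicate number as a block, and leaving out libraries.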

Additional observations from a re-analysis of the deposited data

How the results depend on the processing

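No gene had a limma adjusted p under 0.05 under any setting run, while between 20 (without Nmd+/+ replicate 3) and 711 (replicate block) of the genes tested had an unadjusted p under 0.05, against 65 in the fit reported. Dropping the filter gave 517 of 27711. The median difference of the genes of oxidative phosphorylation was -0.02 in the fit reported. Taking the replicate number as a block cannot change it, because each number holds a library of either genotype. With the block the smallest limma adjusted p of any gene was 0.074. Of the 79, 1, Cox7a1, passed 0.05 before adjustment where none had without the block, as did Polg and Polrmt among the regulators. The block changed no call after adjustment. Without Nmd-/- replicate 3, also 1 of the 79 passed before adjustment. Cox7a1 was at -0.66 with a pseudocount of 0.1. Leaving out 1 library moved that median between -0.05 (without Nmd+/+ replicate 2) and 0.0008 (without Nmd+/+ replicate 1). Without both replicate 1 or both replicate 2 libraries, chosen after seeing the data, it was -0.03 and -0.04. Of 36 named genes with a fitted difference, 19 changed sign when 1 library was left out, and 2 under median-of-ratios scaling, Sdhc at -0.0056 and Sdhaf2 at -0.0068; none of them passed the test in either case, and the cause was not tested. The differences without 1 library ran from -0.0077 to 0.034 for Sdhc, -0.018 to 0.051 for Sdhaf2, -0.16 to 0.10 for Cox8a, -0.31 to 0.093 for Atp5sl, -0.063 to 0.016 for Cox4i1, -0.086 to 0.0497 for Cox6b1 and -0.34 to 0.032 for Ndufaf5. They ran from -0.14 to 0.021 for Sdha, -0.031 to 0.20 for Uqcrq, -0.056 to 0.31 for Uqcrc1, -0.20 to 0.36 for Atp5g3, -0.50 to 0.0032 for Cox7a2 and -0.17 to 0.25 for Atp5g1, and from -0.13 to 0.23 for Sdhaf1, -0.53 to 0.0502 for Usmg5, -0.20 to 0.037 for Gabpa, -0.086 to 0.38 for Cox6b2, -0.011 to 0.32 for Ndufv1 and -0.45 to 0.012 for Cox7b. The shares of 5 of 8 isoform pairs also changed sign, with differences in percentage points from -0.028 to 0.025 for Cox6a2, -2.13 to 6.67 for Cox6b2, -0.0015 to 0.042 for Cox7b2, -0.0064 to 0.013 for Cox8b and -0.0055 to 0.039 for Ndufa4l2. The tables give no counts, so the depth behind the low isoforms is unknown.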
